A study of Homo sapiens with 6 samples.

Results

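Keratins are the intermediate filament proteins of epithelial cells, and desmosomes are the junctions that tie those filaments together from cell to cell. The genes described here are 5 keratins of simple epithelia (KRT7, KRT8, KRT18, KRT19 and KRT80) and 5 desmosome genes (JUP, DSP, DSG2, DSC2 and PKP2). They were chosen by name, as every probe set that the array annotation gives to one of these symbols alone. All 10 had a probe set, among 19775 genes so named, and they took 19 of the 54613 probe sets, and 0 probe sets shared a member's name with another gene. A gene was read by its brightest probe set, that is the highest mean over the arrays, and its other probe sets are given too. Cells labelled HepG2, an established line from a human liver tumour, had been transfected with an siRNA against RNF43 (3 arrays) or with a negative control siRNA (3 arrays), and total RNA was taken 48 h later for HG-U133 Plus 2.0 arrays. All 6 arrays thus come from cells given an siRNA with the lipid reagent Lipofectamine. The labels call the 3 arrays of a group biological replicates and do not speak of separate cultures. The p-values therefore reflect only how far these arrays spread, a spread that may be technical.

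Keratin filaments are built from pairs of a type II and a type I protein. KRT8 (type II) and KRT18 (type I) form the basic pair of simple epithelia and are the keratins of hepatocytes, while KRT7 and KRT19 mark bile duct cells in the liver. In a desmosome the cadherins DSG2 and DSC2 reach across to the neighbouring cell, the armadillo proteins JUP (plakoglobin) and PKP2 (plakophilin 2) bind their tails, and DSP (desmoplakin) fastens the plaque to keratin. RNF43 is a membrane ubiquitin ligase that restrains Wnt signalling, and plakoglobin is a close relative of beta-catenin, the effector of that pathway.

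The antisense strands of the siRNAs are shown because they define the groups. Capitals mark the seed, bases 2 to 8, through which an siRNA can also bind other transcripts.
RNF43 siRNA: aUAAUAGCuuucuguucugtt
control siRNA: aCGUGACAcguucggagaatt
The RNF43 transcript, the check on the labels, was 8.19, 8.22 and 8.41 in log2 signal on the arrays labelled RNF43 siRNA, against 7.65, 7.79 and 7.45 on the control siRNA arrays. It was thus higher, not lower, on the arrays labelled RNF43 siRNA (log2 difference 0.64, SE 0.15, limma adjusted p = 0.0188). That call was lost without RNF43 siRNA replicate 2 or 3 or without control siRNA replicate 1 (adjusted p of at least 0.0575, with alternatives spanning 0.0098 to 0.0673), with a positive difference in each. Directions below follow the array labels, and no loss of RNF43 mRNA was measured behind them.

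The label HepG2 was set against hepatocyte markers. A probe set was tested where its mean log2 signal lay in the upper 50% of all probe sets, above 5.83, and 8 of the 9 hepatocyte markers with a probe set fell below this filter. Albumin (ALB), the main plasma protein of hepatocytes, had log2 signals of 4.31, 4.23 and 4.17 on the arrays labelled RNF43 siRNA and 4.31, 4.43 and 3.82 on the control siRNA arrays. Alpha-fetoprotein (AFP) was the marker above the filter, at 6.12 to 6.65 on the arrays labelled RNF43 siRNA and 6.91 to 7.13 on the control arrays. Its log2 difference of -0.60 was not called (limma adjusted p = 0.107). The summed linear signal of the 9 markers was 213 to 376 on the arrays labelled RNF43 siRNA and 332 to 452 on the control siRNA arrays, and 0 of the 9 had a value at 0. Hepatocyte markers were thus near or below the filter in both groups and did not bear out the label. The identity of the cells was not tested. CDH1, the epithelial cadherin of adherens junctions, also lay below it on all arrays, while CDH2, the neural cadherin, had 11.56 to 11.79 on the arrays labelled RNF43 siRNA and 11.65 to 11.73 on the control siRNA arrays.

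**Figure D1:**
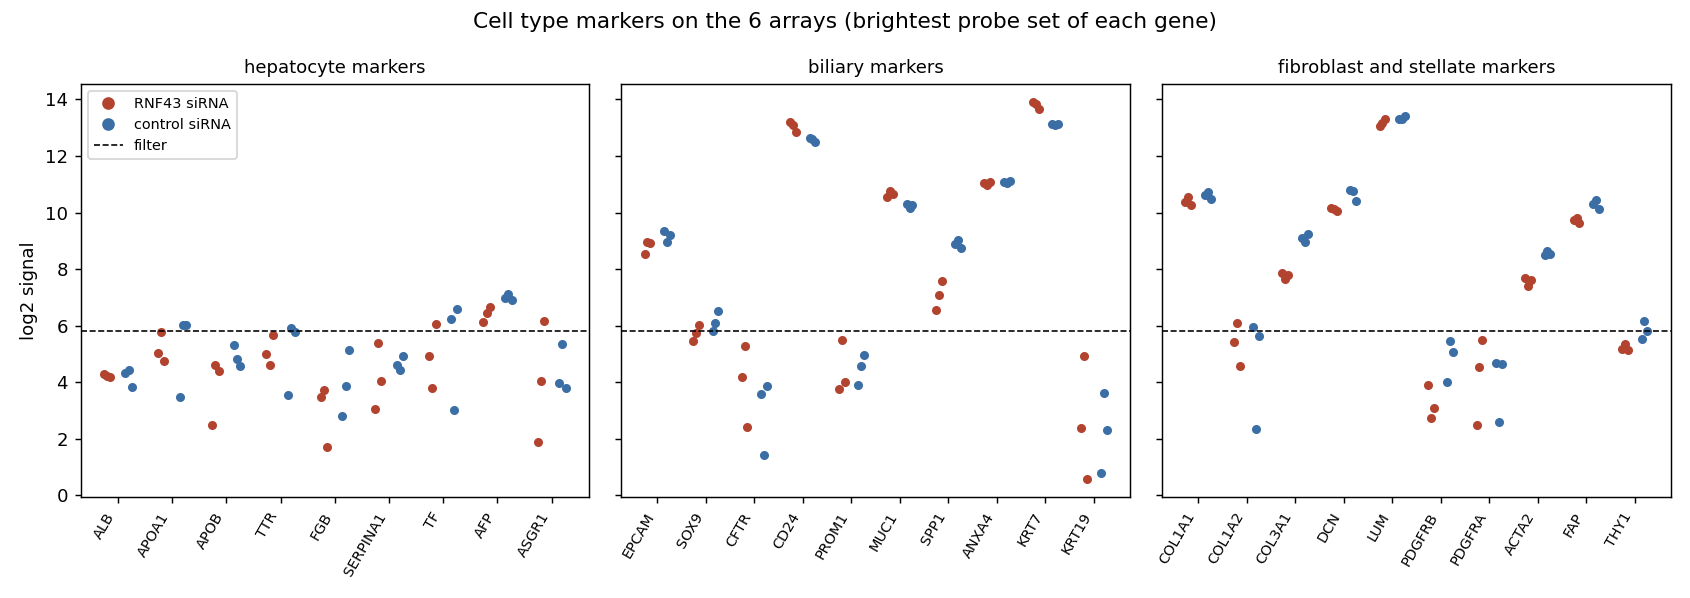
Log2 signal of cell type markers on each array (brightest probe set of each gene), RNF43 siRNA in red and control siRNA in blue, with the filter of 5.83 as a dashed line. Of 9 hepatocyte markers, 8 have a mean below the line, while KRT7 is far above it and KRT19 below it on all 6 arrays.

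Of the 10 genes, 9 passed the filter. Higher signals on the arrays labelled RNF43 siRNA were called for 5 of these 9, the keratins KRT80, KRT8, KRT7 and KRT18 and the plaque gene JUP, and 0 were called lower (limma, Benjamini-Hochberg adjusted p under 0.05 over all probe sets tested). Over the brightest probe sets of all 11853 genes tested, 19.2% were called, made up of 9.77% called higher and 9.42% called lower. The median log2 difference was 0.36 over the 9 members and -0.0028 over all genes tested. The same 5 genes had groups that did not overlap, as did 38.9% of all genes tested. Counted by probe set, 12 of the 19 were tested and 5 were called higher, against 15.5% called among all 27306 probe sets tested, 7.9% higher and 7.55% lower. The groups did not overlap for 6 of the 12, as for 33.8% of all probe sets tested. The members were chosen with earlier results of these data known, so the shares and medians set side by side here are a description.

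**Figure D2:**
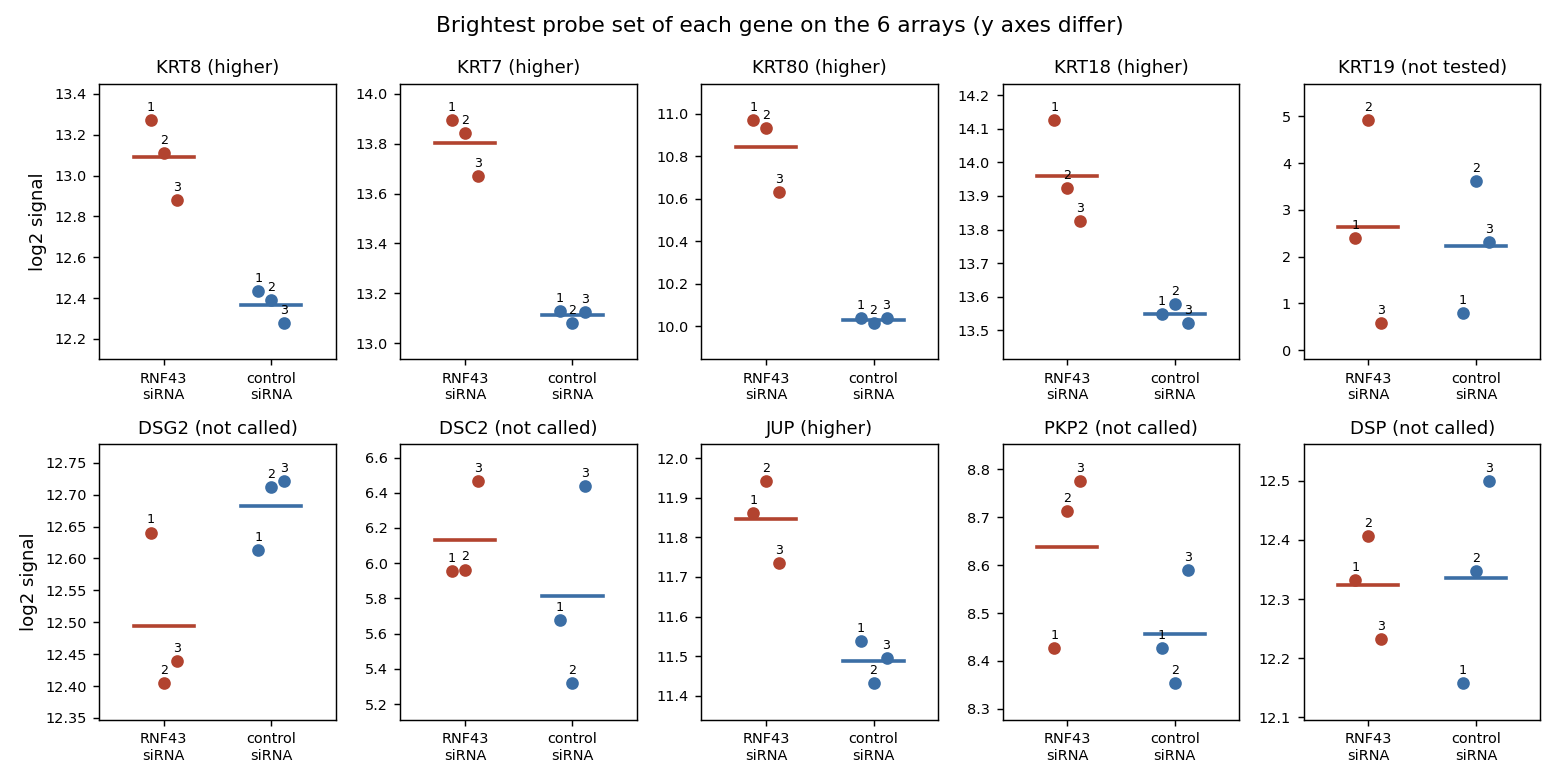
Log2 signal of the brightest probe set of each gene, with each array as a numbered point (replicate number) and the group mean as a line, RNF43 siRNA left and control siRNA right. The groups stand apart for KRT8, KRT7, KRT80, KRT18 and JUP and overlap for the others; axes differ between panels.

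The type II keratins KRT8, KRT7 and KRT80 had the largest called differences of the 9 tested genes. KRT80, an epithelial keratin, had 10.97, 10.93 and 10.63 in log2 signal on the arrays labelled RNF43 siRNA, against 10.04, 10.02 and 10.04 on the control siRNA arrays. This was 1.76-fold higher (95% confidence interval 1.50 to 2.05, limma adjusted p = 9.36e-04). KRT8 had 13.27, 13.11 and 12.88 on the arrays labelled RNF43 siRNA, against 12.43, 12.39 and 12.28 on the control siRNA arrays, or 1.65-fold higher (1.42 to 1.92, limma adjusted p = 0.00155). In both genes every array labelled RNF43 siRNA lay above every control array, and replicate 3 was the lowest of the arrays labelled RNF43 siRNA. The same array was the lowest of its group for KRT7, KRT18 and JUP.

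KRT7, the type II keratin of ducts and glands, was read by 4 probe sets. The brightest had 13.89, 13.84 and 13.67 on the arrays labelled RNF43 siRNA, against 13.13, 13.08 and 13.12 on the control siRNA arrays, 1.61-fold higher (95% confidence interval 1.45 to 1.80, limma adjusted p = 3.57e-04). A second KRT7 probe set, ending in _at, had 7.10, 6.69 and 6.54, against 6.18, 6.40 and 6.20 in control siRNA, and its log2 difference of 0.51 was not called (SE 0.24, limma adjusted p = 0.193). Another, ending in _s_at, had a difference of 0.54 that was not called either (adjusted p = 0.276), and the dimmest lay below the filter on all 6 arrays. The brightest 3 KRT7 probe sets thus had positive differences of 0.69, 0.51 and 0.54, and those of the dimmer pair had intervals that reach below 0. When the 4 were averaged, KRT7 had the same difference of 0.69 but no call (limma adjusted p = 0.118; alternatives spanned 6.37e-05 to 0.118).

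KRT18, the type I partner of KRT8, had 14.13, 13.92 and 13.82 in log2 signal on the arrays labelled RNF43 siRNA, against 13.55, 13.58 and 13.52 on the control siRNA arrays. It was 1.33-fold higher (95% confidence interval 1.17 to 1.50, limma adjusted p = 0.00875), and its groups did not overlap. The call was lost without an intensity trend in the variance (adjusted p = 0.0592; alternatives spanned 0.00152 to 0.0592). The log2 ratio of KRT8 over KRT18 was -0.87 ± 0.07 on the arrays labelled RNF43 siRNA and -1.18 ± 0.06 on the control siRNA arrays (SD, n = 3 each), a shift of 0.31 toward KRT8. The level of such a ratio depends on the probes, and its shift between the groups is what is compared. The part of the probes in that shift was not tested. An exact two-sided permutation test of this shift gave p = 0.1, the smallest that 3 against 3 arrays allow (0.1 also after Benjamini-Hochberg adjustment over 3 such ratios, chosen after the values were seen). The single KRT8 and KRT18 probe sets both carry the suffix _x_at, given where some probes match other sequences as well, and the RefSeq table names 52 pseudogenes of KRT8 and 68 of KRT18. The share of pseudogene transcripts in these signals was not tested.

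KRT19, the small type I keratin of bile duct cells, was below the filter on both of its probe sets. Its brighter one had 2.39, 4.92 and 0.59 on the arrays labelled RNF43 siRNA, against 0.79, 3.61 and 2.31 on the control siRNA arrays. The other had 1.68, 0.90 and 0.94, against 1.29, 2.17 and 1.79 in control siRNA. These low signals overlapped between the groups and were not tested, and both probe sets lay well below the filter.

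By the RefSeq order of protein-coding genes on chromosome 12 (GRCh38.p14), KRT8 and KRT18 are next to each other, and so are KRT80 and KRT7. On the outer side of the first pair, KRT78 had a log2 difference of -0.32 (limma adjusted p = 0.574) and EIF4B, a translation initiation factor, one of -0.22 (adjusted p = 0.0977). The brightest probe set of neither was called (1 of 2 other EIF4B probe sets was called lower), beside log2 differences of 0.72 for KRT8 and 0.41 for KRT18. The genes that flank the other pair, SMIM41 and KRT86, had no probe set of their own here.

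JUP was the desmosome gene called among the 5. Its log2 signals were 11.86, 11.94 and 11.74 on the arrays labelled RNF43 siRNA, against 11.54, 11.43 and 11.50 on the control siRNA arrays. The groups did not overlap, and JUP was 1.28-fold higher (95% confidence interval 1.14 to 1.44, limma adjusted p = 0.0122). The call was lost without RNF43 siRNA replicate 2 (adjusted p = 0.0576) or control siRNA replicate 2 (0.0580) and without an intensity trend (0.0607), within 0.00344 to 0.0607 over all alternatives.

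DSP, the plakin that joins keratin to the plaque, had 12.33, 12.41 and 12.23 on the arrays labelled RNF43 siRNA, against 12.16, 12.35 and 12.50 on the control siRNA arrays. The values overlapped, and the log2 difference of -0.01 had a 95% confidence interval of -0.22 to 0.20 (limma adjusted p = 0.955), which is a fold of 0.99 with bounds of 0.86 and 1.15. The log2 ratio of JUP over DSP was -0.48 ± 0.02 on the arrays labelled RNF43 siRNA and -0.85 ± 0.20 on the control siRNA arrays (SD, n = 3 each, exact two-sided permutation p = 0.1, the smallest possible). That of KRT8 over DSP was 0.76 ± 0.15 on the arrays labelled RNF43 siRNA and 0.03 ± 0.25 on the control arrays (exact two-sided permutation p = 0.1). In both ratios the groups did not overlap, as they did not for JUP and KRT8 alone. Both ratios were chosen after the values were seen.

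Neither cadherin was called. DSG2 had 12.64, 12.40 and 12.44 on the arrays labelled RNF43 siRNA, against 12.61, 12.71 and 12.72 on the control siRNA arrays, on its brightest probe set (log2 difference -0.19, 95% confidence interval -0.36 to -0.01, limma adjusted p = 0.142). Its other probe set had 9.69, 9.32 and 9.45, against 10.12, 10.12 and 9.49 in control siRNA (log2 difference -0.43, adjusted p = 0.141). Both DSG2 differences were negative, in a direction opposite to JUP and the keratins, but RNF43 siRNA replicate 1 lay above the lowest control array in each, so the groups overlapped. The first passed as lower without RNF43 siRNA replicate 1 (adjusted p = 0.0465; alternatives spanned 0.0465 to 0.359). The second passed without control siRNA replicate 3 (0.00717, range 0.00603 to 0.368).

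DSC2 was dim on its 4 probe sets, of which 1 passed the filter. That probe set had 5.95, 5.96 and 6.47 on the arrays labelled RNF43 siRNA, against 5.68, 5.32 and 6.44 on the control siRNA arrays, with a log2 difference of 0.32 and a wide 95% confidence interval of -0.48 to 1.12 (limma adjusted p = 0.612). That DSC2 difference was 0.071 without control siRNA replicate 2, 0.15 without RNF43 siRNA replicate 3 and 0.63 without control siRNA replicate 3, with no call in any. Another DSC2 probe set had 4.38 to 4.96 on the arrays labelled RNF43 siRNA and 0.73 to 3.30 on the control siRNA arrays, without overlap, but all of its values lay below the filter and it was not tested. PKP2 had 8.43, 8.71 and 8.78 on the arrays labelled RNF43 siRNA, against 8.43, 8.35 and 8.59 on the control siRNA arrays. These overlapped, and the log2 difference of 0.18 was not called (95% confidence interval -0.12 to 0.48, limma adjusted p = 0.420). With the mean of both PKP2 probe sets the difference was -0.0072.

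**Figure D3:**
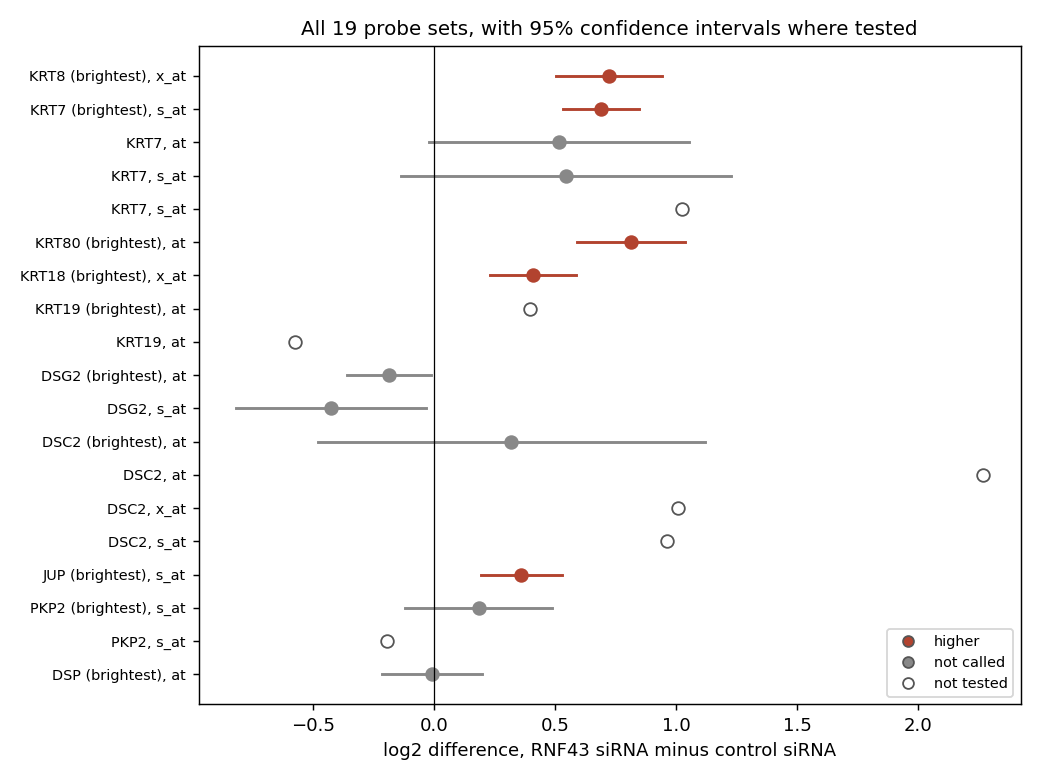
Log2 difference, RNF43 siRNA minus control siRNA, of all 19 probe sets, with 95% confidence intervals from limma for the 12 that were tested. The 5 called higher (red) are the brightest probe sets of KRT8, KRT7, KRT80, KRT18 and JUP; open circles lay below the filter and have no interval.

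Upstream sequence is shown for KRT8 and JUP, which were called higher, and for DSP, which was not. RefSeq promoter entries (GRCh38.p14) matched 5 of the 10 genes, with 7 starts in all, and the 250 bases before each start were searched on both strands for GGGCGG (the GC box), for TATAAA (the TATA box), for CCAAT (the CCAAT box), for TGANTCA (the AP-1 site) and for GGAATG (the TEAD site). Capitals mark the matches, and neighbouring matches can run together or share a base, as GC boxes do at the 5′ end of the DSP window.
KRT8, chr12:52926470-52926719, minus strand: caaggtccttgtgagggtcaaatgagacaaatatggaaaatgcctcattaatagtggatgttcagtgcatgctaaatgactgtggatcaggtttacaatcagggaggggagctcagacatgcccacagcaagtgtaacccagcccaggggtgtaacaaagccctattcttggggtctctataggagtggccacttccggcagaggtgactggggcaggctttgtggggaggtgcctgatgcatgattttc
JUP, chr17:41786712-41786961, minus strand: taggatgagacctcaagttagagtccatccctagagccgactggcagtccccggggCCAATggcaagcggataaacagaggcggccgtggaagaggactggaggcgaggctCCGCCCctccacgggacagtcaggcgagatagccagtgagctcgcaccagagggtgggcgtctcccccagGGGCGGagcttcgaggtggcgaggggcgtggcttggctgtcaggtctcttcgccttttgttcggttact
DSP, chr6:7541421-7541670, plus strand: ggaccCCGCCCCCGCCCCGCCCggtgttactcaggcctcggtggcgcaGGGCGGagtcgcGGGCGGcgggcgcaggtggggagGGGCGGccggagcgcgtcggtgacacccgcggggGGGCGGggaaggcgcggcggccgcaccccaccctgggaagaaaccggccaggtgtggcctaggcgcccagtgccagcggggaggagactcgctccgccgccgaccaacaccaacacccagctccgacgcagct
The KRT8 window held none of the 5 motifs and was 50.4% G or C, below the median of 58% over all 35116 windows. That of JUP held 2 GC boxes and 1 CCAAT (63.6% G or C), and the window of a second JUP start held none. DSP had 7 GC boxes and 78% G or C. A GC box stood in 42.6% of all windows, CCAAT in 32%, GGAATG in 11.9%, TATAAA in 10.7% and TGANTCA in 6.57%. A window without a match, as that of KRT8, can share no motif with JUP, so the called genes were not compared by motif. Only this KRT8 start was searched, and which start these cells use was not tested. A match is a description of letters.

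The other keratins were mostly dim. Of 17 other type II keratins with a probe set, 1 was tested and 0 were called. Of 22 other type I keratins, 3 were tested and 0 were called by their brightest probe set. KRT10, a type I keratin of the upper epidermis that can also be found in cell lines, had 12.01, 12.17 and 12.37 on the arrays labelled RNF43 siRNA, against 12.24, 12.18 and 12.50 on the control siRNA arrays, which overlapped (limma adjusted p = 0.499), while 1 of its 2 other tested probe sets was called lower. Of 13 genes of other intermediate filaments, 10 were tested, with 0 called higher and 1 lower. That was NEFH, a neurofilament subunit, 1.37-fold lower on the arrays labelled RNF43 siRNA (limma adjusted p = 0.0171), a call that ended when its probe sets were averaged (0.797) and without RNF43 siRNA replicate 2 or control siRNA replicate 1 or 2. Vimentin (VIM), the filament of mesenchymal cells, had 13.71 to 13.99 on the arrays labelled RNF43 siRNA and 13.90 to 14.04 on the control siRNA arrays and was not called (adjusted p = 0.255).

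Among other desmosome genes, 3 of 10 were tested, 1 called higher and 1 lower. PKP4, an armadillo protein of the plakophilin family, had 9.81, 9.90 and 9.92 on the arrays labelled RNF43 siRNA, against 9.04, 8.98 and 8.72 on the control siRNA arrays, 1.95-fold higher (limma adjusted p = 6.48e-04). Of its 4 other tested probe sets, 1 was called higher. PERP, a membrane protein of desmosomes and a p53 target, had 13.12, 13.18 and 13.33, against 13.89, 13.91 and 14.07 in control siRNA, 1.68-fold lower (limma adjusted p = 3.53e-04). Of 2 other tested PERP probe sets, 1 was called lower. Averaging the PERP probe sets ended the call (limma adjusted p = 0.271, with alternatives spanning 1.43e-05 to 0.271). The desmosome genes called thus moved in both directions. PKP3, a plakophilin of epithelia, was tested and not called (log2 difference -0.23, adjusted p = 0.247).

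Cytolinker and hemidesmosome genes were called higher in 4 of 9 tested and lower in 0, with a median log2 difference of 0.15. Over all genes tested, 9.77% were called higher and 9.42% lower. ITGB4, the integrin chain of hemidesmosomes that anchors keratin to the basement membrane, had 9.05, 9.01 and 9.01 on the arrays labelled RNF43 siRNA, against 7.77, 7.79 and 7.78 on the control siRNA arrays. It was 2.37-fold higher (limma adjusted p = 1.90e-04), while 2 other tested ITGB4 probe sets were not called. Its partner chain ITGA6 had a log2 difference of -0.0045 (adjusted p = 0.987). PPL, periplakin, a cytolinker that binds keratin, was 1.57-fold higher (limma adjusted p = 0.00340), and MACF1, which links actin and microtubules, 1.30-fold (0.00895). Averaged over its probe sets, MACF1 had a difference of -0.033, and its call was also lost without an intensity trend. The large keratin linker PLEC was not called (log2 difference -0.30, adjusted p = 0.151).

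Of 6 genes whose proteins bind keratins or desmosomes, 1 was called higher and 1 lower. DNAJB6, a chaperone that binds KRT18, was 1.27-fold higher (limma adjusted p = 0.0165), and PNN, pinin, 1.24-fold lower (0.0448, with 0 of 4 other tested probe sets called). Both calls ended without an intensity trend and without RNF43 siRNA replicate 1 or 2 or control siRNA replicate 2, and that of PNN without each other array but control siRNA replicate 3. Among 8 tested adherens junction genes AFDN, afadin, was called, 1.40-fold lower (limma adjusted p = 0.0111), which ended without RNF43 siRNA replicate 2 (0.0509). Of 10 tested tight junction genes, 2 were called higher and 2 lower. PARD6B, a polarity protein, was 2.53-fold higher (limma adjusted p = 7.03e-04) and CLDN12, a claudin, 1.21-fold (0.0289), while CLDN1 was 1.19-fold lower (0.0317). The CLDN1 call ended without any 1 of the 6 arrays. That of CLDN12 ended without RNF43 siRNA replicate 2 or 3, control siRNA replicate 1 or 2, or an intensity trend. Of 6 tested transcription and splicing regulators of epithelia, KLF5 was called by its brightest probe set, 1.31-fold higher (limma adjusted p = 0.0129). That call ended when the KLF5 probe sets were averaged (limma adjusted p = 0.265), without RNF43 siRNA replicate 2 and without an intensity trend. The brightest ELF3 probe set was not called (log2 difference 0.26, limma adjusted p = 0.111), while 2 of 2 other tested ELF3 probe sets were called higher.

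**Figure D4:**
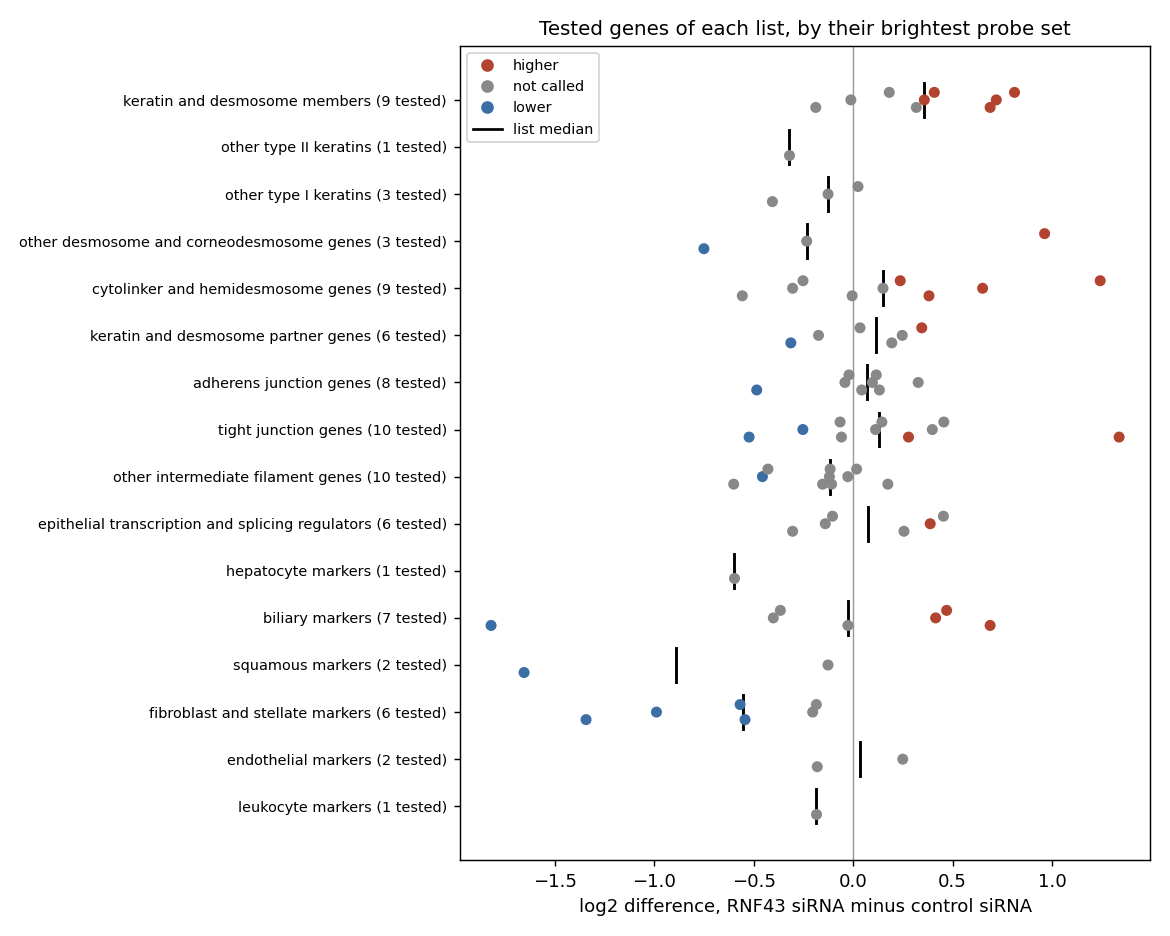
Log2 difference, RNF43 siRNA minus control siRNA, of every tested gene of each list by its brightest probe set, with the list median as a black line. Desmosome, partner and tight junction lists hold calls in both directions. The 5 called members all lie right of 0, as do the 4 called cytolinker and hemidesmosome genes. The 4 called fibroblast and stellate markers lie left of 0.

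Markers of other cell types also differed between the groups, where 9.77% of all genes tested were called higher and 9.42% lower. Fibroblast and stellate cell markers were called lower in 4 of 6 tested and higher in 0 on the arrays labelled RNF43 siRNA, with a summed linear signal of all 10 markers of 12508 to 13640 against 15946 to 16060 on the control siRNA arrays, and 0 markers with a value at 0. The brightest marker, LUM, weighs most in this sum and was not called (log2 difference -0.18, limma adjusted p = 0.123). COL3A1, a fibrillar collagen, was 2.54-fold lower (limma adjusted p = 2.61e-04), ACTA2, smooth muscle actin, 1.98-fold (0.00172) and FAP, a surface protease, 1.48-fold (0.00620). Their part in the keratin differences was not tested. Biliary markers, which include KRT7 and KRT19, were called higher in 3 of 7 tested and lower in 1. Their median log2 difference was -0.026 over these 7. Beside KRT7, CD24, a surface glycoprotein, was 1.39-fold higher (limma adjusted p = 0.00912), with all 5 of its other tested probe sets called higher too. The call of the brightest CD24 probe set ended without an intensity trend. SPP1, osteopontin, was 3.53-fold lower (limma adjusted p = 0.00127). Of squamous markers, 2 of 7 were tested, and SPRR3, a cornified envelope gene, was called, 3.15-fold lower (0.00530). Endothelial and leukocyte markers had 2 of 6 and 1 of 5 tested and 0 called. In bulk RNA, fewer cells of a type and less RNA per cell cannot be told apart.

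Over the 6 arrays, the brightest probe sets most like that of KRT8 by Pearson's r were those of BSG (0.998), GPRC5A (0.997) and ASNSD1 (0.996), among 11853 genes tested. For DSP they were PHLPP1 (0.990), FZR1 (0.986) and DENND2B (0.979). The KRT8 values include the difference between the groups, and with 6 arrays and so many genes such values are a description of order only.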

How the data were processed

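The deposited values are 1 log2 signal per probe set and array, and the submitters' processing notes name MAS5, with no version. The values gave the log base, since with base 2 the linear array means, trimmed at both ends by 2%, were 497.03 to 497.23 on all arrays, so the arrays were already scaled. Such scaling hides a shift common to all transcripts, and 391 to 628 values per array sat at 0. No further normalization was applied. The number of arrays limits the precision. Of 54613 probe sets, 41091 named 1 gene, 1801 several and 11721 none here, with symbols updated to RefSeq symbols (GRCh38.p14).

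All probe sets with a mean above the filter were fitted together with limma 3.58.1 in R 4.3.3 (lmFit, eBayes with an intensity trend), with two-sided tests and Benjamini-Hochberg adjustment over 27306 probe sets. The fit was tested on simulated data. Of 176 list symbols, 155 had a probe set. Members and lists were chosen with earlier results of these data known. The text names all members, RNF43, up to 3 called genes with the smallest p per list, and the genes most like KRT8 and DSP. Flanking genes, and the markers and list genes given with values but not called, were chosen after their values were seen. Detection calls and scan dates were not used here.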

Additional observations from a re-analysis of the deposited data

How the results depend on the processing

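KRT80 and KRT8 were called higher under every alternative that tested them, with log2 differences of 0.75 to 0.92 and 0.63 to 0.82. Of 4219 probe sets called, the count was 2787 without an intensity trend, 2684 of 11853 with the brightest probe set per gene, 1587 of 10605 with probe sets averaged per gene, 2643 with _x_at and _s_at probe sets left out, 1764 at adjusted p under 0.01 and 2238 to 4465 without each array in turn (lowest without RNF43 siRNA replicate 2). With arrays centred on their medians, 60.6% of calls were higher, against 51.1% as reported, and the 5 called members were all higher. Called members were 3 without the trend (KRT80, KRT8 and KRT7), 1 of 5 without _x_at and _s_at probe sets (KRT80) and 4 to 6 without each array, all higher except DSG2 without RNF43 siRNA replicate 1. Of 23 list genes called, the count was 13 without the trend, 12 of 57 with probe set means, 10 of 51 without _x_at and _s_at, 12 at adjusted p under 0.01, and 13 to 24 without each array (lowest without RNF43 siRNA replicate 2). Differences that changed sign were those of DSP, at 0.024 with arrays centred on their medians, 0.034 without RNF43 siRNA replicate 3, 0.071 without control siRNA replicate 3 (-0.10 to 0.071 without each array in turn) and 0.12 without both arrays numbered 3 (chosen after the data were seen), PKP2 at -0.0072 and MACF1 at -0.033 with probe set means. The call of PNN was lost under 10 of 19 alternatives. The cause of these changes was not tested, beyond the fewer probe sets or arrays in some.

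Same-numbered arrays deviated weakly in the same direction (r of 0.19, 0.078 and 0.31 across probe sets), against -0.26 to 0.13 for arrays of unlike number. A shared factor per replicate number is thus possible, and the main fit did not take the numbers as pairs. With the replicate number as a block, 6370 probe sets were called, against 4219 in the main fit. The number of members called was the same, and the dimmer DSG2 probe set was called lower (limma adjusted p = 0.038). Low signal limits what can be seen for KRT19, below the filter on both probe sets, and for DSC2, below it on 3 of 4.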
